A study of Mus musculus with 3 samples.

Results

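Amino acid breakdown was followed through 41 genes of hepatic catabolism and of the methionine cycle, chosen by name and grouped by the amino acid that is broken down. A member was read through the probe set of highest mean log2 signal among those that the array annotation assigns to that gene alone. Such a probe set was found for 40 of the 41 members, out of 18193 genes in all. The missing member, Sds, was not analysed here. All 40 lay in the upper 25% of signal, where 6834 genes lay, so that none was removed for low signal. The liver takes up amino acids that arrive from the gut, removes the amino group, mostly through transaminases that use pyridoxal phosphate, and oxidises the carbon skeletons in the cytosol and the mitochondria. Branched-chain amino acids differ from the others in that their first transamination takes place largely outside hepatocytes, while the later, mitochondrial steps are active in the liver. The methionine cycle makes S-adenosylmethionine, the methyl donor of the cell, and transsulfuration turns the homocysteine that results into cysteine.

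Liver RNA came from male C57BL/6J mice fed 1 of 3 diets. The Control diet supplied 10% of energy as fat and 70% as carbohydrate, the high-fat diet (HF) 60% as fat and 20% as carbohydrate, and both supplied 20% as protein. The third diet (HF+SFC) was the high-fat diet with sodium ferrous citrate, a ferrous iron salt, at 0.023% by weight. Mice were 6 weeks old at the start and were fed for 15 weeks by the study's methods, while the sample labels give an age of 21 months, at odds with a feeding period that ends at 21 weeks. Each group was 1 array of material pooled over the mice of the group. There were therefore no replicates, no test between diets was possible, and a difference between 2 arrays has no replicate check. The HF array enters both HF over Control and HF+SFC over HF, and these comparisons are given side by side only.

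Signals are MAS5 intensities on a linear scale, and a difference is the log2 ratio of 2 arrays. With no replicate error at hand, the scatter among probe sets of the same gene served as a yardstick. It does not measure variation between mice, pools or hybridisations, so a ratio beyond it may still lie within replicate error. The scatter was taken over the 914 genes with 2 or more probe sets as bright as the dimmest member. Its SD was 0.14 for HF over Control, 0.12 for HF+SFC over HF and 0.14 for HF+SFC over Control. Many member ratios lie within that spread. Of the 40 members, 14 had 2 or more kept probe sets, and all probe sets of a member pointed the same way in 12 of the 14 for HF over Control, in 7 for HF+SFC over HF and in 11 for HF+SFC over Control. The widest disagreement was 0.52 on the log2 scale for HF over Control, in Auh. Bulk signals cannot tell fewer cells of a type from less RNA per cell.

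**Figure D1:**
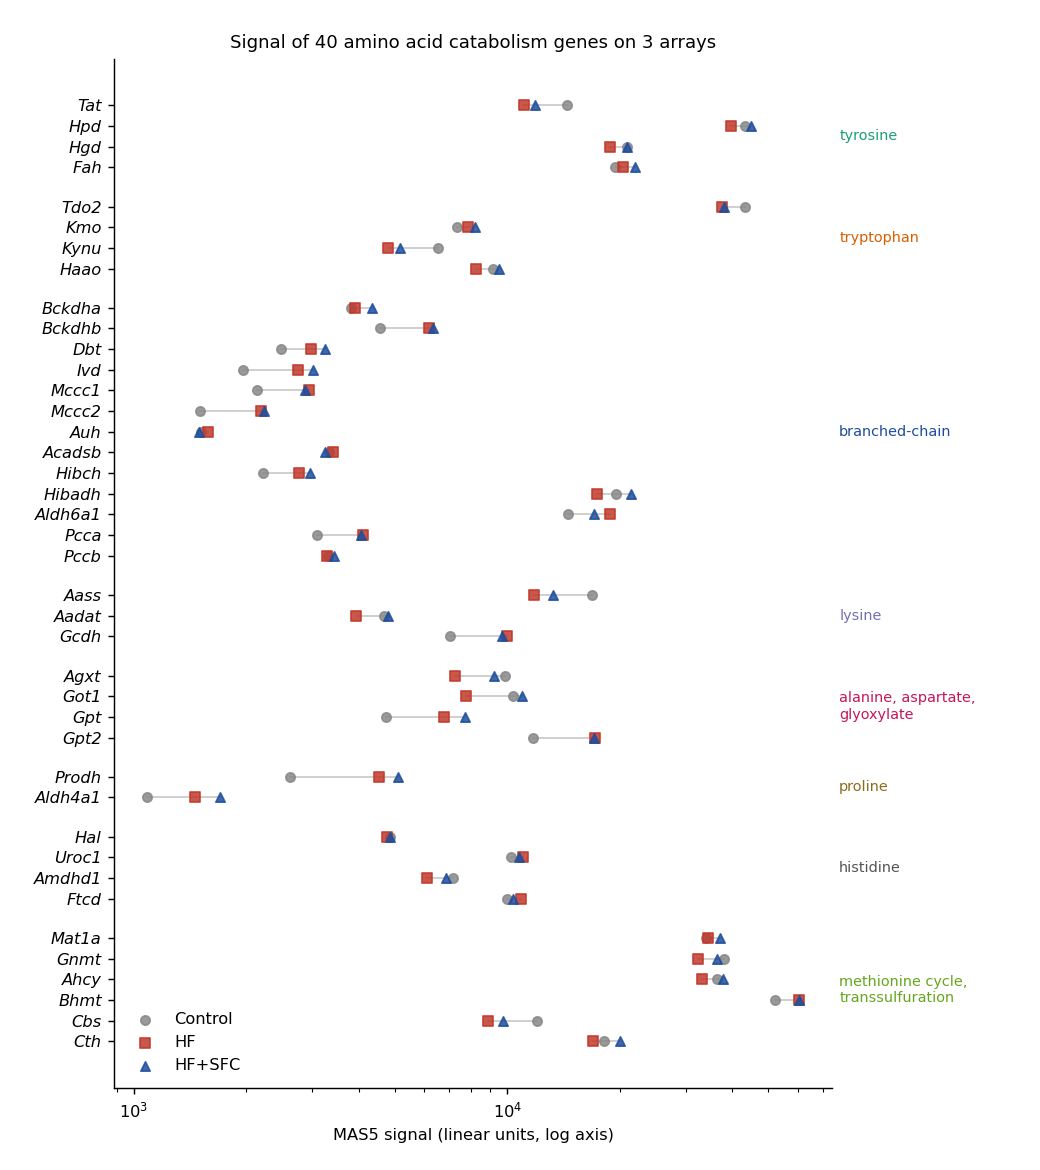
MAS5 signal (log axis) of the 40 measured genes on the Control, HF and HF+SFC arrays, 1 symbol per array and 1 row per gene. Most rows are short: Prodh, from 2626 in Control to 4534 in HF, has the widest step between these arrays.

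Few members were 1.5-fold apart between the HF and Control arrays. Prodh was the 1 member at least 1.5-fold higher in HF, and 0 members were at least 1.5-fold lower, where 11.3% and 5.84% of the 11341 kept genes were. The median log2 ratio of HF over Control was 0.04 over the members, with 22 above 0 and 18 below. It was 0.03 over the kept genes and -0.05 over the 3197 genes as bright as the dimmest member. The share above 0 was 55% of members, 53.1% of kept genes and 43.3% of those bright genes. Single members ranged from -0.51 (Aass) to 0.79 (Prodh). For HF+SFC over HF, 0 members passed 1.5-fold upward and 0 downward, where 2.88% and 5.33% of kept genes did. The median was 0.11, against -0.01 over kept genes and 0.03 over genes as bright as the dimmest member. In this comparison 30 of 40 members lay above 0. That share of 75% stood against 48.8% of kept genes and 59.2% of the 3197 genes as bright as the dimmest member. For HF+SFC over Control, 4 members were at least 1.5-fold higher, namely Prodh, Gpt, Aldh4a1 and Ivd, and 0 were lower, where 9.2% and 6.88% of kept genes were. Among genes as bright as the dimmest member, 4.85% were higher by that fold and 4.32% lower for HF over Control. The corresponding shares were 0.344% and 0.532% for HF+SFC over HF, and 4.85% and 4.44% for HF+SFC over Control. Above 0 for HF+SFC over Control lay 30 of 40 members, 52.1% of kept genes and 49% of genes as bright as the dimmest member. Bright genes vary less between these arrays than dim ones, so the second background is the closer one for members that are all bright.

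**Figure D2:**
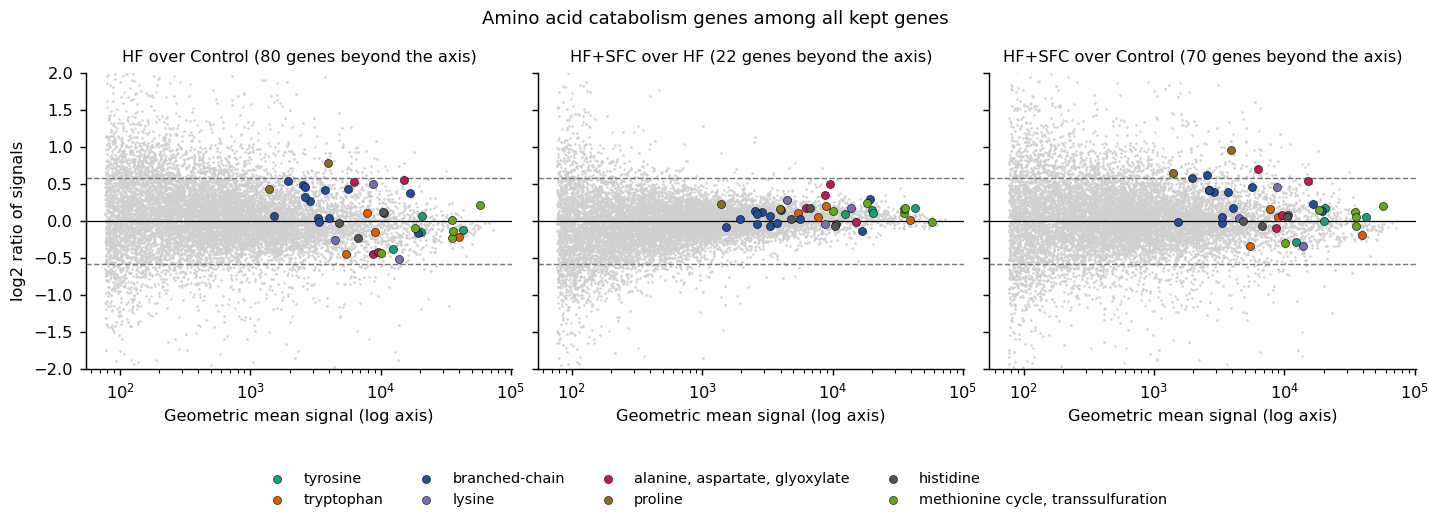
Log2 ratio of 2 arrays against geometric mean signal (log axis) for all kept genes (grey) and the 40 members (coloured by amino acid), in 3 comparisons, with dashed lines at 1.5-fold. The members sit at the bright end, and in HF+SFC over HF all of them lie between -0.14 and 0.50.

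Sequence upstream of the start sites was available for part of the members. RefSeq entries on GRCm38.p6 matched 35 of the 40 members, in 38 windows of 250 bases before the annotated start. Both strands were searched for TATAAA (the TATA box), CCAAT (the CCAAT box), GGGCGG (the GC box bound by Sp1), CACGTG (an E-box) and TGTTCT (a hexamer bound by the glucocorticoid receptor). CCAAT was found in 57.9% of member windows and 33.8% of all 32851 windows, GGGCGG in 39.5% and 32.7%, TATAAA in 10.5% and 12.4%, CACGTG in 5.26% and 6.02%, and TGTTCT in 10.5% and 16.1%. In the sequences printed below, capitals mark these letters or their reverse complement, and all run 5′ to 3′ toward the start site. A match describes the letters of a window and is no measure of binding.

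The proline genes had the highest median ratio of the 8 groups in both comparisons over Control, 0.61 for HF and 0.80 for HF+SFC. Prodh encodes proline dehydrogenase, the mitochondrial flavoenzyme that begins proline oxidation. Its signal was 2626 (Control), 4534 (HF) and 5089.8 (HF+SFC), so that HF was 1.73-fold and HF+SFC 1.94-fold above Control. Aldh4a1, the dehydrogenase of the following step to glutamate, read 1085 (Control), 1459 (HF) and 1705 (HF+SFC). Control was the low array for both genes. The log2 ratios of HF over Control were 0.79 for Prodh and 0.43 for Aldh4a1, those of HF+SFC over HF 0.17 and 0.22, and those of HF+SFC over Control 0.95 and 0.65. Each gene was read by 1 kept probe set, so no second reading of these differences exists. The upstream window of Prodh (chr16:18089191-18089440, minus strand), shown as that of the member with the largest difference, held none of the motifs searched.
Prodh: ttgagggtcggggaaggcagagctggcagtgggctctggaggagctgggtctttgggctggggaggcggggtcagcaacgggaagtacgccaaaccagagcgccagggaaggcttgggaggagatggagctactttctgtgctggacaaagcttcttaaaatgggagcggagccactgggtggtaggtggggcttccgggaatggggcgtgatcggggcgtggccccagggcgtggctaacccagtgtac

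The branched-chain members were mostly higher on the HF array than on the Control array. Of these 13 genes, 11 had a log2 ratio above 0 and 2 below, with a median of 0.33. In the same comparison 53.1% of kept genes and 43.3% of genes as bright as the dimmest member lay above 0. None of the 13 reached 1.5-fold. The 11 kept genes of this route outside the members had a median of 0.10 for HF over Control, with 7 above and 4 below 0. For HF+SFC over HF the median of the 13 members was 0.03, with 8 above and 5 below 0. HF+SFC over Control gave a median of 0.39, with 11 of 13 above 0 and Ivd past 1.5-fold.

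The leucine branch carried the highest of these ratios. Mccc2, a subunit of the biotin-dependent methylcrotonyl-CoA carboxylase, read 1501 (Control), 2187 (HF) and 2235 (HF+SFC), and its log2 ratios were 0.54 for HF over Control but 0.03 for HF+SFC over HF. Its 3 probe sets gave 0.54 to 0.58 for HF over Control, the narrowest range among branched-chain genes with more than 1 kept probe set. Mccc1, the biotin-carrying subunit, had 0.46 by its brightest probe set and 0.65 by the other. Ivd, isovaleryl-CoA dehydrogenase, read 1963 (Control), 2753 (HF) and 3027 (HF+SFC), with a log2 ratio of 0.49 for HF over Control, against 0.62 for HF+SFC over Control. Its other kept probe set gave 0.01 and 0.19, so the difference in Ivd rests on 1 of 2 probe sets. Auh, the methylglutaconyl-CoA hydratase of the next step, had 0.07, with probe sets from -0.40 to 0.11. The window upstream of Mccc2 (chr13:100015640-100015889, minus strand) is given as that of the highest branched-chain ratio. It held CACGTG 9 bases before the start and 3 matches to CCAAT or its reverse, of which the pair at 33 and 30 bases overlap.
Mccc2: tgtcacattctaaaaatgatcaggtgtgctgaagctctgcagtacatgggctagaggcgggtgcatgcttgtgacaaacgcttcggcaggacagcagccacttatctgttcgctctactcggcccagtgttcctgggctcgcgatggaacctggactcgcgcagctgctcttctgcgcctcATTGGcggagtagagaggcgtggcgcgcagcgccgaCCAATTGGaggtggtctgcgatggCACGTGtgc

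The steps shared by the branched-chain amino acids and the valine branch were less even. The ketoacid dehydrogenase, which commits the carbon skeletons to oxidation, was read through Bckdha, Bckdhb and Dbt, with log2 ratios of HF over Control of 0.04, 0.43 and 0.27, so that subunits of the same complex differed. The subunits of propionyl-CoA carboxylase differed likewise, with 0.41 for Pcca and -0.01 for Pccb. Aldh6a1, the methylmalonate semialdehyde dehydrogenase of valine breakdown, read 14524 (Control), 18794 (HF) and 17046 (HF+SFC). Its ratio of HF+SFC over HF, -0.14, was the lowest of the 40 members. Hibadh, the dehydrogenase just before it, ran the other way, with 19542 (Control), 17402 (HF) and 21470.3 (HF+SFC). HF was the low array for Hibadh and the high array for Aldh6a1, though the other probe set of Hibadh gave 0.12 instead of -0.17 for HF over Control. Hibch, the hydrolase of the same branch, had 0.33 by its brightest probe set and 0.71 by the other. Acadsb, which acts on an isoleucine intermediate, read 3326 (Control), 3409.9 (HF) and 3252 (HF+SFC), and was nearly level.

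**Figure D3:**
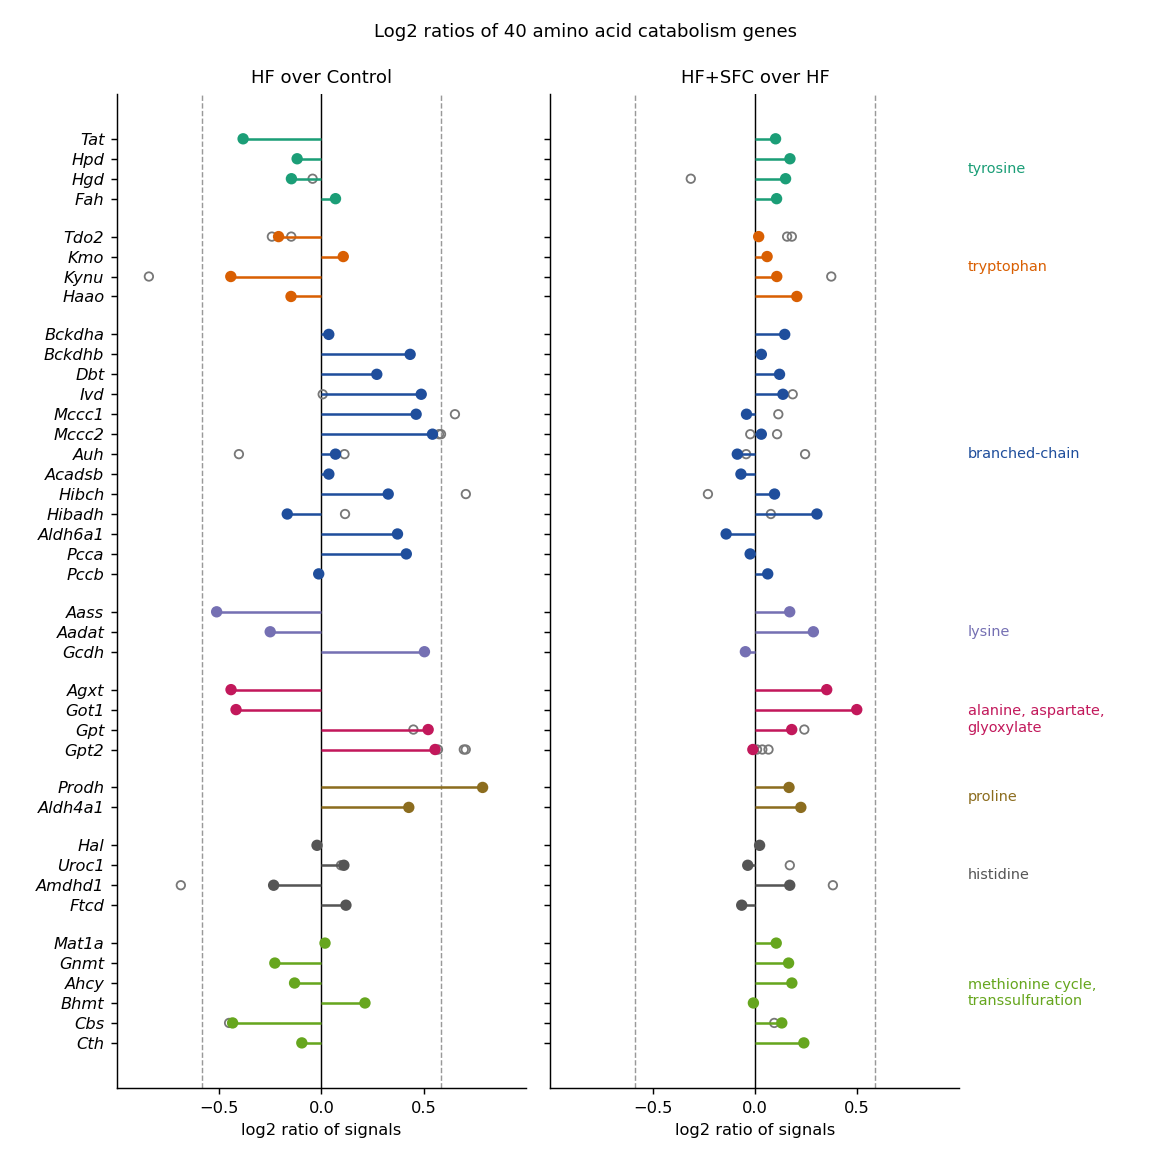
Log2 ratios of the 40 genes for HF over Control and HF+SFC over HF, filled symbols for the brightest probe set, open circles for other kept probe sets and dashed lines for 1.5-fold. In the left panel 11 of 13 branched-chain genes point up, and the open circles show where probe sets of a gene disagree, as in Ivd, Auh and Kynu.

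Most of the tyrosine and tryptophan members, which act largely in the cytosol, were slightly lower on the HF array. In each group 3 of 4 genes lay below 0 for HF over Control, with medians of -0.13 and -0.18, and all 4 of each lay above 0 for HF+SFC over HF (medians 0.13 and 0.08). Exceptions under other settings were Hpd for HF over Control, at 0.00 under quantile normalization and 0.01 under lowess, and for HF+SFC over HF Tdo2 at -0.05 under lowess and Hgd at -0.08 by the median over its probe sets. Genes as bright as the dimmest member leaned the same way. Of these, 43.3% lay above 0 when HF was set over Control, and 59.2% when HF+SFC was set over HF. Whether groups of 4 genes depart from these shares was not tested. The 6 kept genes of these routes outside the members had a median of 0.22 for HF over Control, with 4 above 0. Tat, tyrosine aminotransferase, whose transcription glucocorticoids and glucagon induce, read 14440.3 (Control), 11071 (HF) and 11873 (HF+SFC). Its log2 ratio was -0.38 for HF over Control, against 0.10 for HF+SFC over HF. Both high-fat arrays were thus below Control for Tat. Hpd, which oxidises the product of Tat, read 43251 (Control), 39827 (HF) and 44846.5 (HF+SFC). Fah, the last enzyme of the route, read 19480 (Control), 20429 (HF) and 21984.5 (HF+SFC) and was the tyrosine gene with the highest ratio, 0.07 for HF over Control. These steps of Hpd and Fah are within or close to the spread between probe sets.

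Among the tryptophan genes, Kynu had the lowest ratio. Kynu encodes kynureninase, a pyridoxal phosphate enzyme of the kynurenine route, and read 6509.6 (Control), 4787 (HF) and 5155 (HF+SFC), a log2 ratio of -0.44 for HF over Control, against 0.11 for HF+SFC over HF. Its other probe set gave -0.84 and 0.37, the same directions at greater size. Tdo2, the heme enzyme that opens the tryptophan ring, read 43402.5 (Control), 37529 (HF) and 38009.7 (HF+SFC), and its 3 probe sets ranged from -0.24 to -0.15 for HF over Control. Kmo, the flavin monooxygenase between Tdo2 and Kynu, read 7313 (Control), 7874 (HF) and 8205 (HF+SFC), with Control as the low array. Haao, an iron dioxygenase, read 9165 (Control), 8266 (HF) and 9527 (HF+SFC).

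The lysine genes split within the pathway. Aass, the bifunctional enzyme that begins lysine breakdown in mitochondria, read 16810.4 (Control), 11783 (HF) and 13257 (HF+SFC), and its log2 ratio of HF over Control, -0.51, was the lowest of the 40 members. Aadat, the aminoadipate aminotransferase that follows, read 4678 (Control), 3932 (HF) and 4793 (HF+SFC), with a ratio of -0.25 when HF was set over Control and 0.29 when HF+SFC was set over HF. Gcdh, the flavin dehydrogenase of glutaryl-CoA, read 7033 (Control), 9970.2 (HF) and 9653 (HF+SFC), ratios of 0.50 and -0.05. On the HF array Aass and Aadat were thus below Control and Gcdh above it, while on the HF+SFC array Aadat was at the Control level, with a ratio of 0.04. The 4 kept lysine genes outside the members all lay above 0 for HF over Control, with a median of 0.11. Each of the 3 genes had 1 kept probe set.

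The aminotransferases of alanine, aspartate and glyoxylate split as well. The alanine aminotransferases were higher on both high-fat arrays. Gpt, the cytosolic enzyme, read 4727 (Control), 6787 (HF) and 7688 (HF+SFC), and Gpt2, the mitochondrial one, read 11694 (Control), 17188 (HF) and 17067 (HF+SFC). Their log2 ratios of HF over Control were 0.52 and 0.56, with the probe sets of Gpt at 0.52 and 0.45 and the 4 of Gpt2 between 0.56 and 0.71. All probe sets of both genes lay above 0. Got1, the cytosolic aspartate aminotransferase of the malate-aspartate shuttle, read 10328 (Control), 7731 (HF) and 10918 (HF+SFC). Agxt, which detoxifies glyoxylate in peroxisomes, read 9835 (Control), 7238 (HF) and 9231 (HF+SFC). HF was the low array for both Got1 and Agxt, with ratios of -0.42 and -0.44 for HF over Control, against 0.50 and 0.35 for HF+SFC over HF, and the other 2 arrays were close to each other. The ratios of Got1 and Agxt for HF+SFC over HF were the highest of the 40 members, and each rests on 1 probe set. The window upstream of Got1 (chr19:43524606-43524855, minus strand), shown for the highest ratio of HF+SFC over HF, held 5 matches to CCAAT or its reverse, the nearest 12 bases before the start.
Got1: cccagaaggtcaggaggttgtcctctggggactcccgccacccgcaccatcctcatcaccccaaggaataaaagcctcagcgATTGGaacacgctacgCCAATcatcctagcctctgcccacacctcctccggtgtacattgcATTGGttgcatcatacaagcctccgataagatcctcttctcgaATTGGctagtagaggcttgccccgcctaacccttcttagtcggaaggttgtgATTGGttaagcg

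By their brightest probe sets, the histidine genes differed little between the arrays. The median log2 ratio was 0.04 for HF over Control, and that for HF+SFC over HF was -0.01, against 0.11 and -0.07 under quantile normalization. Ftcd, which passes the last carbon of histidine to folate, read 9999 (Control), 10864 (HF) and 10388 (HF+SFC). Uroc1, urocanase, read 10204 (Control), 11009 (HF) and 10744 (HF+SFC). For both genes these differences were within the spread between probe sets. The other probe set of Uroc1 gave 0.17 for HF+SFC over HF and 0.27 for HF+SFC over Control, beyond that spread. Amdhd1, the imidazolonepropionase between Uroc1 and Ftcd, read 7163 (Control), 6091 (HF) and 6854 (HF+SFC), and its probe sets gave -0.23 and -0.69 for HF over Control. Hal, the lyase that begins the route, is named here outside the naming rule for its upstream sequence. It read 4852, 4779 and 4855 on the Control, HF and HF+SFC arrays, a log2 ratio of -0.02 for HF over Control. Its window (chr10:93488518-93488767, plus strand) held the reverse complement of TATAAA 28 bases before the start and CCAAT at 64 bases. Of the 4 members with a TATAAA match, Hal and Ftcd (29 bases before the start) had it nearest the start.
Hal: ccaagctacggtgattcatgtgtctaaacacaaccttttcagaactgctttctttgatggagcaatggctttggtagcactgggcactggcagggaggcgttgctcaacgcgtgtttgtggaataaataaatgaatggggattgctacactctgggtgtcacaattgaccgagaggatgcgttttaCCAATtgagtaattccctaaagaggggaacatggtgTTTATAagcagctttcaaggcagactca

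In the methionine cycle and transsulfuration, 4 of 6 genes lay below 0 for HF over Control (median -0.11), whereas 5 of 6 lay above 0 for HF+SFC over HF (median 0.15). Of genes as bright as the dimmest member, 43.3% lay above 0 in the first comparison and 59.2% in the second. The 13 kept genes of methionine and one-carbon metabolism outside the members had a median of 0.08 for HF over Control. Of these, 9 lay above and 4 below 0. For HF+SFC over HF their median was 0.15, with 8 above and 5 below 0. Cbs, cystathionine beta-synthase, the pyridoxal phosphate and heme enzyme that commits homocysteine to cysteine, read 11986 (Control), 8868 (HF) and 9713 (HF+SFC). Its log2 ratio of HF over Control was -0.43 by the brightest probe set and -0.45 by the other. Both high-fat arrays were below Control for Cbs. Cth, which completes transsulfuration, read 18128 (Control), 16960.1 (HF) and 20018 (HF+SFC), with a ratio of -0.10 when HF was set over Control and 0.24 when HF+SFC was set over HF. Bhmt, which remethylates homocysteine with betaine, had the highest member signal, 52225 (Control), 60525 (HF) and 60210.1 (HF+SFC), a ratio of 0.21 for HF over Control. Bhmt and Cbs, which use homocysteine in competing directions, were thus on opposite sides of Control in both high-fat arrays. Mat1a and Ahcy, which make S-adenosylmethionine and hydrolyse S-adenosylhomocysteine, and Gnmt, which uses up methyl groups on glycine, had ratios between -0.23 and 0.02 for HF over Control. The window upstream of Cbs (chr17:31637206-31637455, minus strand), shown for the lowest ratio of this group, held matches to CACGTG at 229 bases, GGGCGG or its reverse at 88 and 33, and CCAAT or its reverse at 52 and 15.
Cbs: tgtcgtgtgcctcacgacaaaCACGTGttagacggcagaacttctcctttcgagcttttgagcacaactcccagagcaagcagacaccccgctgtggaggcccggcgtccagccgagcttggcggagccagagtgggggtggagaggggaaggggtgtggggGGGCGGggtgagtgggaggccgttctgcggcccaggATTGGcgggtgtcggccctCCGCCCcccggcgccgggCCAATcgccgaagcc

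The bright end of the array limits some of these values. The highest signal of any probe set was 76090.1 (Control), 69903 (HF) and 71125.5 (HF+SFC), and 11 to 12 members per array lay above the 99th percentile. The file holds no saturation calls, so compression of ratios for genes such as Bhmt, Hpd and Tdo2 was not tested.

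Sorted by compartment, the members separated for HF over Control. The 20 mitochondrial members had a median log2 ratio of 0.35, with 16 above 0, and the 19 cytosolic members a median of -0.13, with 6 above and 13 below 0. Of genes as bright as the dimmest member, 43.3% lay above 0. The cytosolic median was closer to 0 under quantile normalization (-0.05) and lowess (-0.01), where the mitochondrial one was 0.39 under both. For HF+SFC over HF the medians were 0.06 and 0.13. The mitochondrial exceptions included Aass at -0.51 and Aadat at -0.25, and the highest cytosolic member was Gpt at 0.52. Compartment overlaps with pathway here, since all 13 branched-chain members are mitochondrial.

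Sorted by cofactor, the 5 flavin enzymes (Ivd, Acadsb, Gcdh, Prodh and Kmo) all lay above 0 for HF over Control, with a median of 0.49, or 0.25 by the median over the probe sets of each gene, since the middle gene, Ivd, was read unevenly. Of the 9 pyridoxal phosphate enzymes, 7 lay below 0, with a median of -0.38, and the exceptions were Gpt and Gpt2. For HF+SFC over HF, 8 of these 9 lay above 0 and the median was 0.18. The study added iron to the diet, and 5 members bind iron or heme, namely Tdo2, Hpd, Hgd, Haao and Cbs. All 5 lay below 0 for HF over Control, with a median of -0.15, and above 0 for HF+SFC over HF, where the median was 0.15, apart from the values of Hpd, Tdo2 and Hgd given above for other settings. Under quantile normalization the medians were -0.06 and 0.09, and under lowess -0.08 and 0.09. As background for all these cofactor counts, 43.3% of genes as bright as the dimmest member lay above 0 for HF over Control. For HF+SFC over HF that share was 59.2%. The shares over all kept genes were 53.1% and 48.8%. Whether the cofactor groups depart from these shares was not tested. A wider list of amino acid enzymes that use iron had 8 kept genes, of which 7 lay below 0 for HF over Control and 6 above 0 for HF+SFC over HF. It adds Cdo1, Ado and Ido2 to the members, and Ido2, a relative of Tdo2, had ratios of 0.54 and -0.10, with Ado at -0.13 and -0.04, in the same order. Hgd, named as a member of this class, read 20902 (Control), 18878 (HF) and 20945 (HF+SFC), and its other probe set gave -0.31 where the brightest gave 0.15 for HF+SFC over HF. These medians are about the size of the spread between probe sets, and 4 of the 5 are cytosolic enzymes of tyrosine or tryptophan breakdown, so that cofactor and pathway cannot be told apart.

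**Figure D4:**
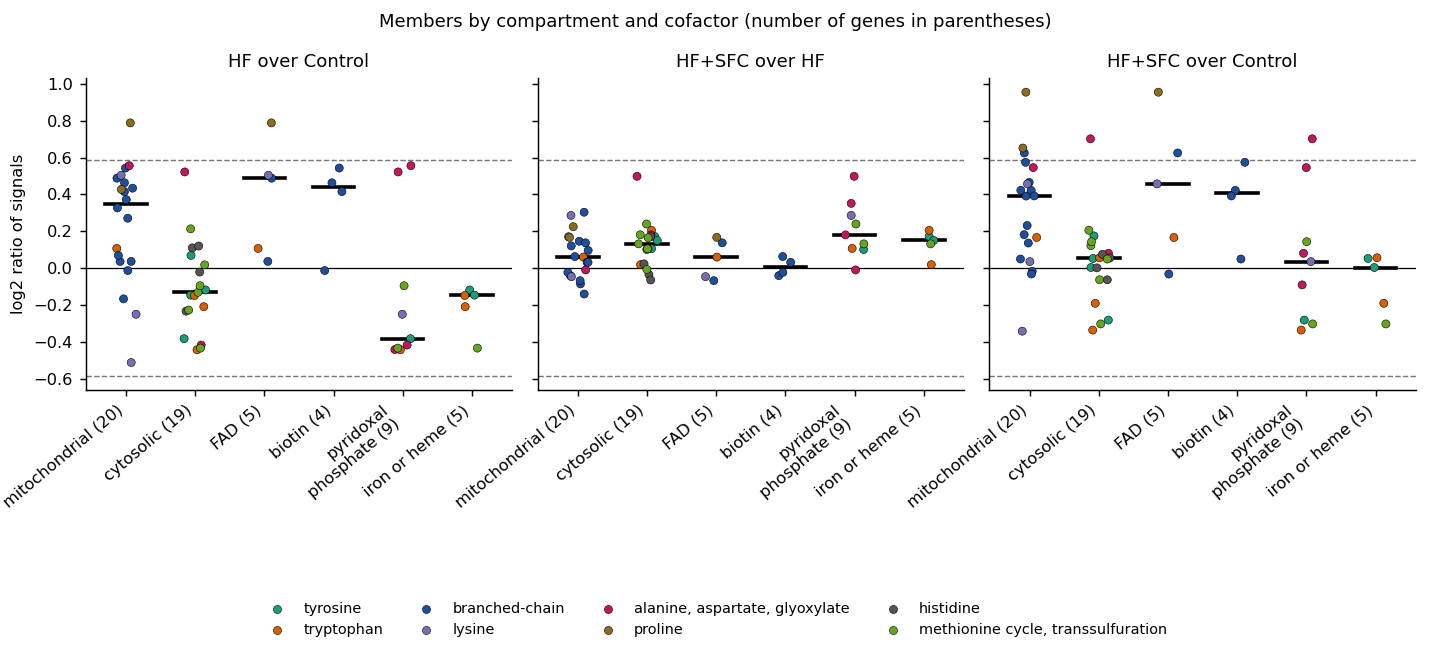
Log2 ratios of members by compartment of the enzyme and by cofactor, in 3 comparisons, 1 point per gene coloured by amino acid, with bars at the medians and dashed lines at 1.5-fold. For HF over Control the mitochondrial median is 0.35 and the cytosolic one -0.13. The 7 pyridoxal phosphate enzymes below 0 range from -0.44 (Kynu) to -0.10 (Cth), and Gpt and Gpt2 lie above 0.

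CpG content upstream of the starts varied widely among the branched-chain genes. Their 15 windows, from 12 genes, had a median of 15 CpG dinucleotides and a range of 1 to 25, against a median of 6 in the 23 windows of the other members and 6 in all windows. Of the 15 windows, 3 lay below the median of all windows, and single windows of other members, such as that of Cbs with 21, were as high as the upper ones. TATAAA was found in 0 of the 15 and in 4 of the 23, and most windows of any gene lack it. The windows of Prodh and Aldh4a1, with 11 and 10, lay between these medians.

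**Figure D5:**
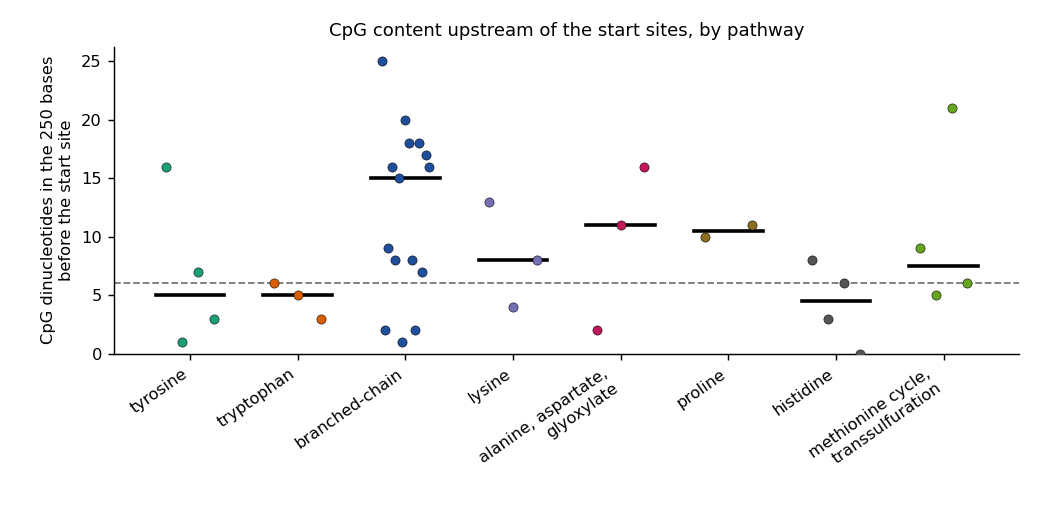
CpG dinucleotides in the 250 bases before each annotated start site, 1 point per window, by amino acid, with bars at group medians and a dashed line at the median of all windows (6). The branched-chain windows range from 1 to 25, with a median of 15.

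Genes of the same pathways outside the members were read from 7 lists, in which 58 genes were kept. For HF over Control 5 of 58 were at least 1.5-fold higher and 1 lower, for HF+SFC over HF 2 and 0, and for HF+SFC over Control 9 and 1, with medians of 0.11, 0.10 and 0.26. Of all kept genes, 11.3% were higher and 5.84% lower by that fold for HF over Control. The shares were 2.88% and 5.33% for HF+SFC over HF, and 9.2% and 6.88% for HF+SFC over Control. Csad, which makes hypotaurine on the way from cysteine to taurine, read 9107 (Control), 2165 (HF) and 2385 (HF+SFC), a log2 ratio of -2.07 for HF over Control, far beyond any member. Agxt2, a mitochondrial aminotransferase of alanine and glyoxylate, read 3124 (Control), 6409 (HF) and 6625 (HF+SFC). In branched-chain breakdown, Mmab, an enzyme of cobalamin metabolism, had 0.90 for HF over Control at low signal, and Bcat2, the mitochondrial branched-chain aminotransferase, had -0.37 for HF over Control but 1.05 for HF+SFC over HF at signals of 67.7 to 139.8, around the lowest signal kept. Hsd17b10, a dehydrogenase of the isoleucine branch, read 6118 (Control), 10962 (HF) and 12244 (HF+SFC). Bckdk, named outside the rule for its role as the kinase that inactivates the ketoacid dehydrogenase, had a ratio of -0.35 for HF over Control, against 0.22 for HF+SFC over HF. Carriers of amino acids at the hepatocyte membrane, of which 11 were kept, had a median of 0.01 for HF over Control, and Slc38a2, a carrier of small neutral amino acids, had -0.51.

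Several other measures differed between the Control and HF arrays alongside the members. Of 14 kept clock genes, 5 lay 1.5-fold or more above Control in HF and 4 as far below it. Ciart was at 2.20, Per3 at 1.96 and Dbp at 1.94. For HF+SFC over HF, 0 and 0 passed. The shares over all kept genes were 11.3% and 5.84% for HF over Control, and 2.88% and 5.33% for HF+SFC over HF. Several members, Tat among them, are known to vary over the day, and the part of sampling time in their ratios was not tested. Among regulators, Hnf4a, a transcription factor of hepatocytes, had a ratio of -0.61, Creb3l3 -0.59 and Tsc22d3, a glucocorticoid target, 0.79. The summed signal of 8 hepatocyte markers was 440307 (Control), 408203 (HF) and 410713 (HF+SFC), that of 16 macrophage markers 30114, 40030 and 29683 in the same order, and that of 12 stellate cell and matrix markers 14592, 22605 and 16721. All 8 hepatocyte markers lay below 0 for HF over Control, with a median of -0.09, and the part of cell composition in the member ratios was not tested.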

How the data were processed

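Liver RNA of 3 groups was hybridised to Affymetrix mouse genome arrays, 1 pooled array per group. The deposited values are MAS5 intensities on a linear scale, which the authors had scaled so that the 2% trimmed mean was 500.004 on each array. The MAS5 version is not given in the sources used here. Depth has no counterpart on arrays, and their number limits the precision.

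Groups were taken from the sample labels. Of 45101 probe sets, 64 controls were left out. The platform annotation, which can be old, gave 34945 of the rest a single gene and 932 several, and did not list 9160. Entrez identifiers of 40 of 40 measured members were found in a RefSeq gene table. The brightest probe set by mean log2 signal stood for each gene, and a gene was kept if this value was among the upper 50% of non-control probe sets (a signal of 76.9 or more). Log2 ratios of the deposited signals were computed with numpy 2.4.6 and pandas 2.3.3, lowess with statsmodels 0.14.6, and plots with matplotlib 3.10.9. Counts and medians of the members were set beside those of all kept genes, and no p-value was computed. The steps were tested on simulated data.

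The members, lists and tests were chosen with earlier results of these data known. Signals on all 3 arrays are given for a member that was at least 1.5-fold apart in any comparison or had the highest or lowest ratio of its amino acid group, the rest by range, and outside the members up to 3 genes per list by size of ratio. Exceptions are named in the text. Alternatives were quantile normalization, median centring, lowess (fraction 0.3), no filter, the upper 25% of signal, a pseudocount of 16, a floor at each array median, the median over probe sets, leaving out probe sets with an ambiguous suffix, and a 2-fold threshold.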

Additional observations from a re-analysis of the deposited data

How the results depend on the processing

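No paired analysis was possible because each group is 1 array and the groups share replicate number 1 only. Leaving out a replicate was not possible for the same reason. The number of members at least 1.5-fold higher in HF than in Control was 2 in place of 1 under quantile normalization, lowess, the median over kept probe sets, and without probe sets of ambiguous suffix, and 0 at 2-fold. The number lower was 1 in place of 0 with the median over kept probe sets, which added Kynu at -0.64. For HF+SFC over Control the number higher was 0 at 2-fold in place of 4. The median over the members was 0.0729 under lowess and 0.0954 without ambiguous suffixes for HF over Control, 0.0785 under quantile normalization and 0.0767 under lowess for HF+SFC over HF, and 0.154, 0.141 and 0.166 under quantile normalization, lowess and without ambiguous suffixes for HF+SFC over Control. The cause was not tested. Over single members, 1061 of 1071 values stayed within the spread between probe sets in the upper 25% of signal, and 24 turned their sign. That spread, wider than the one given above, had an SD of 0.20 for HF over Control. It was 0.17 for HF+SFC over HF and 0.20 for HF+SFC over Control. The limit for amino acid groups was narrower, and a branched-chain median of 0.27 in place of 0.33 for HF over Control counted as moved. By that limit 207 of 216 medians stayed, and 5 turned their sign. The tyrosine and methionine medians for HF over Control came close to 0 under quantile normalization (-0.03 and -0.03) and lowess (-0.02 and -0.01). The signals carry no background or detection calls.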
